A study of Mus musculus with 9 samples.

Results

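The 10 genes described here belong to the corticosteroid axis of the brain: the receptors Nr3c1 and Nr3c2, the enzyme Hsd11b1, the neuropeptide receptor Crhr1, and 6 genes known to respond to glucocorticoids, Fkbp5, Sgk1, Tsc22d3, Klf9, Errfi1 and Hif3a. They were chosen by name from the 40213 genes of the count files, all 10 were present in all 9 libraries, and all 10 passed the filter on low counts, which 16106 genes passed. The libraries are total RNA of the ventral hippocampus of male wild-type C57BL/6J mice, 8 weeks old when housed, with 3 mice in each of 3 groups. SUS+LE mice were restrained for 2 hours a day over 14 days, were classed as susceptible to that stress, and then exercised at low intensity on a treadmill for 2 weeks. SUS mice were restrained on the same schedule, classed as susceptible, and not exercised. SED mice were sedentary and untreated. How susceptibility was scored, and how long after the last session the tissue was taken, are not stated in the labels. Each library came from a mouse of its own, and all 9 carry the batch number 1.

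Corticosterone, the main glucocorticoid of mice, reaches the brain from the adrenal gland in daily and stress-driven pulses. It binds the mineralocorticoid receptor at low concentrations and the glucocorticoid receptor at higher ones. Both receptors wait in a chaperone complex, enter the nucleus when hormone binds, and attach as dimers to short inverted repeats in DNA. The hippocampus is known for holding both receptors in quantity and for its part in switching off the stress response.

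Library totals ran from 14172344 to 15582304 counts, and levels are given as CPM, counts scaled to library size after TMM factors. Neurod6 of pyramidal cells (198 to 239 CPM) and Prox1 of dentate granule cells (74.3 to 118 CPM) were present in every library, so the labelled tissue held its defining neurons. Choroid plexus RNA was uneven: Ttr, its most abundant marker, stood at 83.2, 1510 and 59.6 CPM in SUS+LE 1 to 3, at 27.4, 2660 and 6080 CPM in SUS 1 to 3, and at 4310, 3540 and 2930 CPM in SED 1 to 3. The 3 libraries with least Ttr (SUS+LE 1, SUS+LE 3 and SUS 1) had the 3 lowest scores on principal component 1, −31.5 to −22.8 against −2.7 to 25.4 in the others. Leaving them out keeps SUS+LE 2 alone in its group, which is then assumed to vary like the others. Fold changes over all genes also followed the GC content of transcripts, with a rank correlation across 14697 genes of −0.38 between SUS+LE and SUS and 0.35 between SUS and SED.

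All 10 genes were measured well above the counting floor. Per kilobase of the longest annotated transcript, mean levels over the 9 libraries were highest for Klf9 (45.2 CPM per kb) and Nr3c2 (26.0), followed by Sgk1 (14.4) and Nr3c1 (13.1). Fkbp5 (10.6 CPM per kb), Tsc22d3 (10.1) and Errfi1 (9.94) came next, and their values overlapped across libraries. Hsd11b1 (6.31 CPM per kb), Crhr1 (2.96) and Hif3a (0.673) were lowest. The level of Hif3a rested on 40 to 107 counts a library, that of Crhr1 on 78 to 130, and that of Klf9 on 2623 to 3317. Klf9 varied least between mice of a group, with a coefficient of variation of 3.95%, against a median of 4.51% for genes of like level. Sgk1 varied most relative to such genes, at 16.7% against a median of 5.92%, and Nr3c2 (10.9% against 4.56%) and Fkbp5 (13.5% against 6.09%) also spread more widely.

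**Figure D1:**
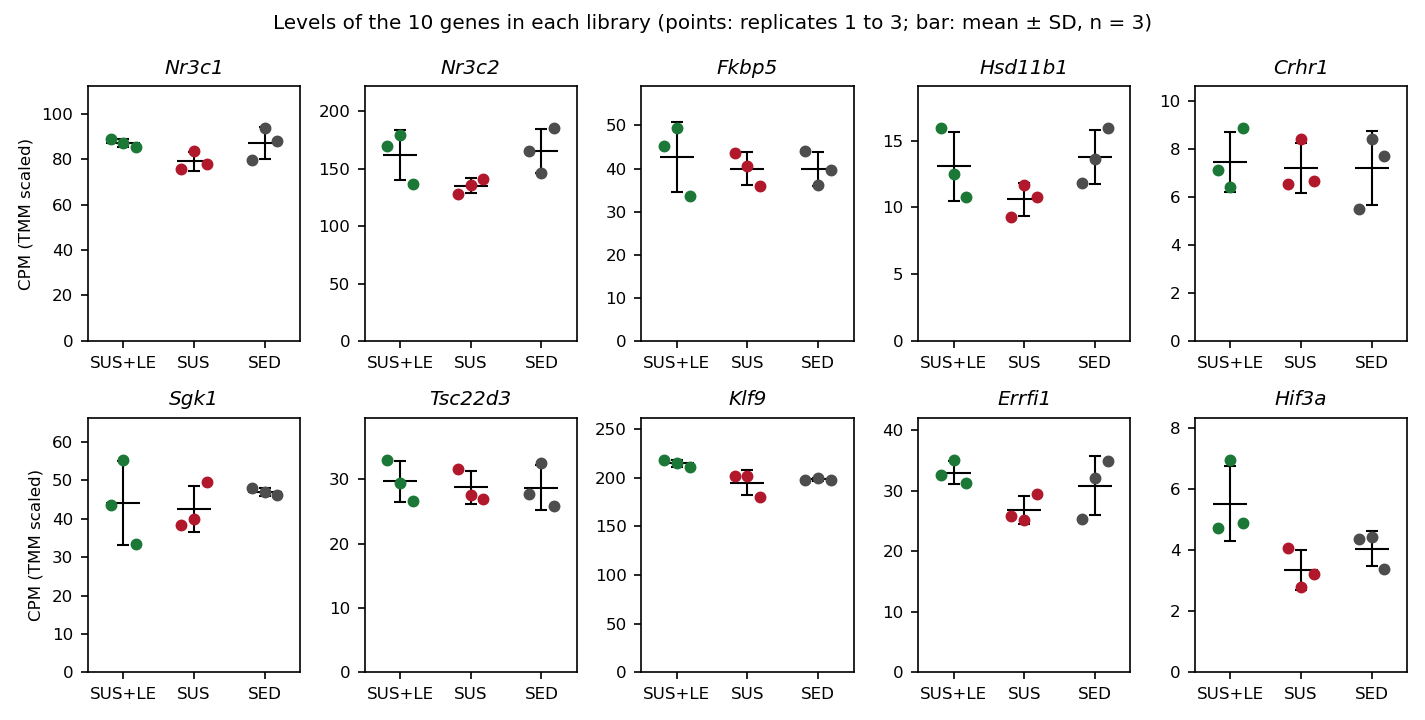
TMM-scaled CPM (vertical axis, linear from 0) of each of the 10 genes in SUS+LE, SUS and SED, with 1 point for each mouse and bars for the mean ± SD (n = 3). The 3 SUS points of Nr3c2 and Hsd11b1 lie below the 3 SED points, and the 3 SUS+LE points of Nr3c1, Klf9, Errfi1 and Hif3a lie above the 3 SUS points.

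By edgeR, 0 of the 10 genes passed an adjusted p of 0.05 in any comparison, as did 0 of the 16106 genes tested (0%). Between SUS and SED, DESeq2 called Nr3c2, gave 7 of the 10 no adjusted p, and called 4.51% of the 3928 genes it could adjust. Between SUS+LE and SUS it called 0 of the 10, but 5 of them, Errfi1 and Hif3a included, got no adjusted p. There it called 3.57% of the 5177 genes it could adjust. Between SUS+LE and SED it called 0 of the 10 (0.0994% of genes). At an unadjusted p of 0.05, 5 of the 10 genes (Nr3c1, Nr3c2, Klf9, Errfi1 and Hif3a) were higher in SUS+LE than in SUS, where 7.20% of all tested genes were, and 0 were lower, where 6.49% were. Between SUS and SED 3 of 10 (Nr3c1, Nr3c2 and Hsd11b1) were lower, against 6.26% of all tested genes, and 0 were higher, against 6.83%. Between SUS+LE and SED 2 of 10 (Klf9 and Hif3a) were higher, against 2.79%, and 0 were lower, against 3.86%. Over both directions, 13.7%, 13.1% and 6.64% of all genes were under it in the same 3 comparisons. The 3 comparisons share groups, SUS+LE against SUS and SUS against SED sharing the 3 SUS libraries, so a low or high SUS value enters both. In the edgeR test for any difference among the 3 groups, 3 of 10 genes (Hif3a, Klf9 and Errfi1) were under an unadjusted p of 0.05, where 13.5% of all genes were, with an adjusted p of 0.216 for Hif3a. Between SUS and SED, the count of 3 under an unadjusted p of 0.05 depended on the setting. It was 4 without a filter on low counts. With GC and length trends removed it was 1, with 1422 of 16106 genes under that p. A choroid plexus score as a covariate also gave 1. The count was 0 without SUS 1, without SED 3, and with the replicate number as a block plus GC and length trends removed. Between SUS+LE and SUS, the count of 5 was 3 with library totals only and 6 without a filter. It was 4 by DESeq2, by limma voom, with RLE factors and with the replicate block. Over 22 alternatives, Nr3c1 was under that p there in 12, Nr3c2 in 11, Klf9 in 20, and Errfi1 and Hif3a in 22.

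Nr3c1, the glucocorticoid receptor, stood at 88.8, 87.3 and 85.4 CPM in SUS+LE mice, at 75.7, 83.6 and 77.9 CPM in SUS mice, and at 79.6, 93.5 and 88.2 CPM in SED mice. Every SUS+LE value lay above every SUS value, while the SUS and SED ranges overlapped. SUS+LE exceeded SUS by 0.14 on the log2 scale (95% interval 0.01 to 0.27, edgeR adjusted p = 0.333). SUS was below SED by about the same amount (log2 fold change −0.14, 95% interval −0.27 to −0.01, edgeR adjusted p = 0.348), and SUS+LE and SED had the same mean, 87.1 CPM. Transcripts of Nr3c1 hold 42.2% GC, under the median of 49.7% for tested genes, and with GC and length trends removed the log2 fold changes came to 0.07 between SUS+LE and SUS and −0.04 between SUS and SED, neither under an unadjusted p of 0.05. Without SED 2, the highest SED library, SUS against SED was −0.09. In bulk tissue, less RNA per cell and fewer cells that carry the gene cannot be told apart.

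Nr3c2, the mineralocorticoid receptor, was measured at 170, 179 and 137 CPM in SUS+LE mice, 128, 136 and 141 CPM in SUS mice, and 165, 146 and 185 CPM in SED mice. All 3 SUS mice were below all 3 SED mice, and SUS+LE 3 fell within the SUS range. The SUS mean was 135 ± 6.93 CPM and the SED mean 165 ± 19.6 CPM (SD, n = 3 each), a log2 fold change of −0.29 with a 95% interval of −0.55 to −0.03. By edgeR the adjusted p was 0.328, and by DESeq2, which called 177 of 3928 genes, it was 0.0456. The SUS+LE mean of 162 ± 22.2 CPM was 0.26 above SUS on the log2 scale (SE 0.115, edgeR adjusted p = 0.363, DESeq2 adjusted p = 0.0862). SUS+LE and SED differed by −0.03, with an interval of −0.29 to 0.23. Without the 3 libraries lowest in Ttr, the log2 fold changes were 0.37 for SUS+LE against SUS and −0.26 for SUS against SED. Nr3c2 shares 247 exon bases with Gm10649 on the opposite strand, a gene that had 0 to 7 counts a library.

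The balance of the receptors was followed as the ratio of Nr3c2 to Nr3c1 counts inside each library, which no scaling of libraries alters. The ratio was 1.92, 2.05 and 1.60 in SUS+LE mice, 1.69, 1.63 and 1.82 in SUS mice, and 2.07, 1.56 and 2.10 in SED mice. Low and high libraries stood apart by more than counting error, with exact binomial 95% intervals of 1.49 to 1.72 for SUS+LE 3 and 1.96 to 2.24 for SED 3. Within SUS the intervals overlapped one another, at 1.56 to 1.82, 1.51 to 1.75 and 1.69 to 1.95 for SUS 1 to 3. These intervals cover counting error only. The 3 groups overlapped, and the lowest ratio of all came from SED 2. Mean log2 ratios were 0.88 ± 0.18 in SUS+LE, 0.77 ± 0.08 in SUS and 0.92 ± 0.24 in SED (SD, n = 3 each). Two-sided exact permutation tests over the 20 arrangements of 3 and 3 mice gave p = 0.4 for SUS+LE against SUS, p = 0.4 for SUS against SED and p = 0.7 for SUS+LE against SED, where the smallest p such a design allows is 0.1.

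**Figure D2:**
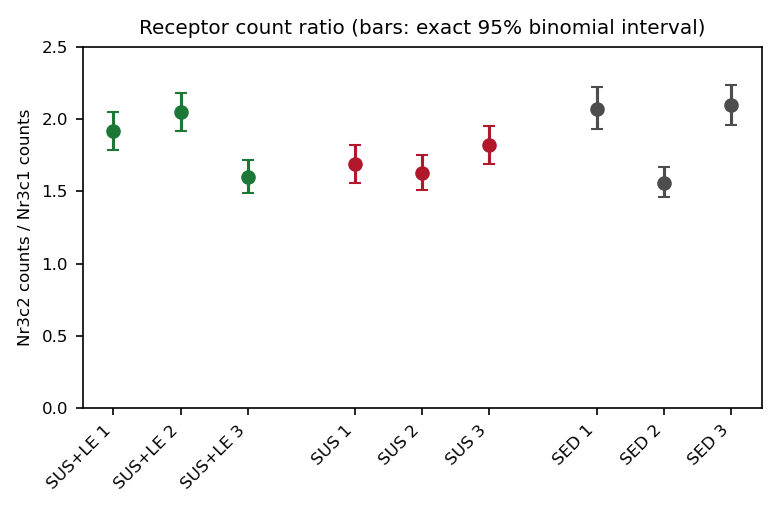
Ratio of Nr3c2 to Nr3c1 counts (vertical axis, linear from 0) in each SUS+LE, SUS and SED library, with exact 95% binomial intervals as bars. Ratios run from 1.56 in SED 2 to 2.10 in SED 3, so the SED mice span the SUS+LE and SUS values.

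Hsd11b1 encodes the reductase that regenerates active corticosterone from its inert metabolite inside cells. Its level was 15.9, 12.5 and 10.8 CPM in SUS+LE mice, 9.28, 11.7 and 10.8 CPM in SUS mice, and 11.8, 13.6 and 15.9 CPM in SED mice. The SUS and SED values did not overlap, though the highest SUS mouse and the lowest SED mouse nearly met. SUS was lower than SED by a log2 fold change of −0.38 (95% interval −0.69 to −0.06, edgeR adjusted p = 0.286), the lowest of the 10 genes in that comparison. SUS+LE was above SUS by 0.30 (SE 0.15, edgeR adjusted p = 0.394) with overlapping values, by 0.14 without SUS+LE 1 alone (adjusted p = 0.783), and by 0.16 without the 3 libraries lowest in Ttr. SUS+LE against SED gave −0.08, with an interval of −0.39 to 0.23.

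Crhr1 encodes the main receptor for corticotropin-releasing hormone, through which the peptide acts on hippocampal neurons. It was measured at 7.12, 6.43 and 8.85 CPM in SUS+LE mice, 6.53, 8.40 and 6.65 CPM in SUS mice, and 5.48, 8.41 and 7.70 CPM in SED mice. The 3 groups covered one another, with means of 7.47 ± 1.25, 7.19 ± 1.05 and 7.20 ± 1.53 CPM in SUS+LE, SUS and SED (SD, n = 3 each). Its 95% interval of −0.31 to 0.42 between SUS+LE and SUS, and of −0.37 to 0.37 between SUS and SED, leaves room for changes of moderate size in either direction.

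Of the 6 target genes, Fkbp5, Sgk1 and Tsc22d3 had values that overlapped between all groups. Fkbp5 encodes a cochaperone that lowers the receptor's affinity for hormone and is itself induced by it, a feedback loop. It stood at 45.2, 49.3 and 33.7 CPM in SUS+LE mice, 43.6, 40.5 and 35.9 CPM in SUS mice, and 44.0, 36.2 and 39.7 CPM in SED mice. SUS+LE 2 was the highest and SUS+LE 3 the lowest of all 9 libraries, so the exercised mice spanned the other groups. The log2 fold change was 0.10 between SUS+LE and SUS (95% interval −0.21 to 0.40, edgeR adjusted p = 0.811) and 0.00 between SUS and SED (−0.31 to 0.31, adjusted p = 0.999). Without the 3 libraries lowest in Ttr, SUS+LE 2 exceeded SUS by 0.37 (edgeR adjusted p = 0.205) and SED by 0.30 (adjusted p = 0.552).

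Sgk1, a serum- and glucocorticoid-regulated kinase of ion channels and transporters, was at 43.6, 55.3 and 33.3 CPM in SUS+LE mice, 38.3, 40.0 and 49.5 CPM in SUS mice, and 48.0, 46.9 and 46.1 CPM in SED mice. SED mice lay close together (47.0 ± 0.972 CPM), SUS+LE mice far apart (44.1 ± 11.0 CPM), and SUS mice between (42.6 ± 6.04 CPM; SD, n = 3 each). As with Fkbp5, SUS+LE 2 was highest and SUS+LE 3 lowest. The 95% intervals of its log2 fold changes were −0.38 to 0.48 for SUS+LE against SUS, −0.57 to 0.28 for SUS against SED and −0.52 to 0.33 for SUS+LE against SED. Without the 3 libraries lowest in Ttr, which leaves SUS+LE 2, the value for SUS+LE against SUS was 0.31 (edgeR adjusted p = 0.276). That for SUS+LE against SED, −0.09 with all libraries (edgeR adjusted p = 0.963), was then 0.24 (adjusted p = 0.700).

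Tsc22d3 encodes the leucine zipper protein GILZ, which carries part of the anti-inflammatory action of glucocorticoids. It was at 33.0, 29.4 and 26.6 CPM in SUS+LE mice, 31.6, 27.6 and 27.0 CPM in SUS mice, and 27.7, 32.6 and 25.8 CPM in SED mice. Each group covered nearly the same range. The 95% intervals of the log2 fold change were −0.16 to 0.25 for SUS+LE against SUS and −0.21 to 0.21 for SUS against SED, and the fold change of SUS against SED was 0.00.

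Promoter windows show where the receptors' recognition letters stand near these genes. RefSeq tables on GRCm38.p6 held 17 windows, 250 bases before to 50 bases from a start site, for 9 of the 10 genes, Nr3c1 not among them. The inverted repeat GNACANNNTGTNC, searched on both strands, was found in 156 of 32851 windows (0.475%), and among the 17 windows it was found in 1, of Sgk1. The 6-base word AGAACA, a longer and stricter form of the repeat's arm GNACA, reads TGTTCT on the other strand and can overlap the repeat. This word was found in 6233 windows (19.0%), and in 4 of the 17, 3 of Sgk1 and 1 of Tsc22d3. The windows of Sgk1 (chr10:21993640-21993939, plus strand) and Tsc22d3 (chrX:140600473-140600772, minus strand) are printed because they hold these letters, with every match in capitals. In Sgk1 the repeat GAACAGAATGTTC lies 188 to 176 bases before the start, and in Tsc22d3 the word TGTTCT lies 185 to 180 bases before it. The counts are per gene and do not tell which start site was used.
Sgk1: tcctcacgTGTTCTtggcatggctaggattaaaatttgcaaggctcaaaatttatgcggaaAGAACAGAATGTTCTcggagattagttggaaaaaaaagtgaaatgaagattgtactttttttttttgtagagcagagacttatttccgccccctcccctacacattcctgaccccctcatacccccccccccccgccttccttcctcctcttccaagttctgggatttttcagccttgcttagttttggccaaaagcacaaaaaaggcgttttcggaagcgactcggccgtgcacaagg
Tsc22d3: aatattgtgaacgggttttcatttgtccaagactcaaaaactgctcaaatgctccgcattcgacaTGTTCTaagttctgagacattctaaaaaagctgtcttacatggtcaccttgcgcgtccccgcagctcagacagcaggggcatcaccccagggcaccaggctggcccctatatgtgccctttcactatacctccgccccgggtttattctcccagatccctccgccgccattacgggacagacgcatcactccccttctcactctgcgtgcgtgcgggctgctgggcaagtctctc
With all 9 libraries, the values of both genes overlapped between all groups.

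The other 3 targets were higher in every SUS+LE mouse than in every SUS mouse. Klf9, a zinc-finger transcription factor induced by glucocorticoids and thyroid hormone, stood at 218, 215 and 211 CPM in SUS+LE mice, 202, 202 and 180 CPM in SUS mice, and 197, 200 and 197 CPM in SED mice. The SUS+LE values also lay above all SED values. The log2 fold change was 0.15 against SUS (SE 0.052, 95% interval 0.04 to 0.25, edgeR adjusted p = 0.222) and 0.12 against SED (interval 0.01 to 0.23, edgeR adjusted p = 0.713). SUS and SED differed by −0.03, with an interval of −0.14 to 0.08, the narrowest among the 10 genes in that comparison. Without SUS 3, the lowest Klf9 library, the value against SUS was 0.09, with the unadjusted p then above 0.05.

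Errfi1, a feedback inhibitor of the epidermal growth factor receptor, was at 32.6, 35.1 and 31.3 CPM in SUS+LE mice, 25.9, 25.2 and 29.4 CPM in SUS mice, and 25.4, 32.2 and 35.0 CPM in SED mice. SED mice ranged almost from the lowest SUS to the highest SUS+LE value. SUS+LE exceeded SUS by 0.30 on the log2 scale (SE 0.102, 95% interval 0.08 to 0.51, edgeR adjusted p = 0.21). SUS against SED gave −0.20 (interval −0.42 to 0.01, edgeR adjusted p = 0.417), −0.33 without SED 1 (adjusted p = 0.424) and −0.10 without SED 3 (adjusted p = 0.809).

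Hif3a, a hypoxia-inducible factor subunit of which some forms restrain the other subunits, was the least abundant of the 10 genes and had the largest fold change among them. It was at 4.72, 6.95 and 4.90 CPM in SUS+LE mice, 4.06, 2.78 and 3.22 CPM in SUS mice, and 4.35, 4.42 and 3.38 CPM in SED mice. All SUS+LE mice were above all SUS and all SED mice, and SUS+LE 2 was the highest. The log2 fold change against SUS was 0.72 (SE 0.207, 95% interval 0.29 to 1.15, edgeR adjusted p = 0.148), rank 268 of 16106 genes by p. Against SED it was 0.45 (interval 0.03 to 0.88, edgeR adjusted p = 0.733), and SUS against SED gave −0.27 (interval −0.72 to 0.18, adjusted p = 0.624). Leaving out SUS+LE 2 brought the value against SED to 0.25 (edgeR adjusted p = 0.915), and that of SUS against SED ran from −0.43 without SUS 1 to −0.16 without SUS 2. Without SUS+LE 2 the value against SUS was 0.52 (edgeR adjusted p = 0.428), and without the 3 libraries lowest in Ttr, where SUS+LE 2 stands alone, it was 1.21 (adjusted p = 0.0688).

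**Figure D3:**
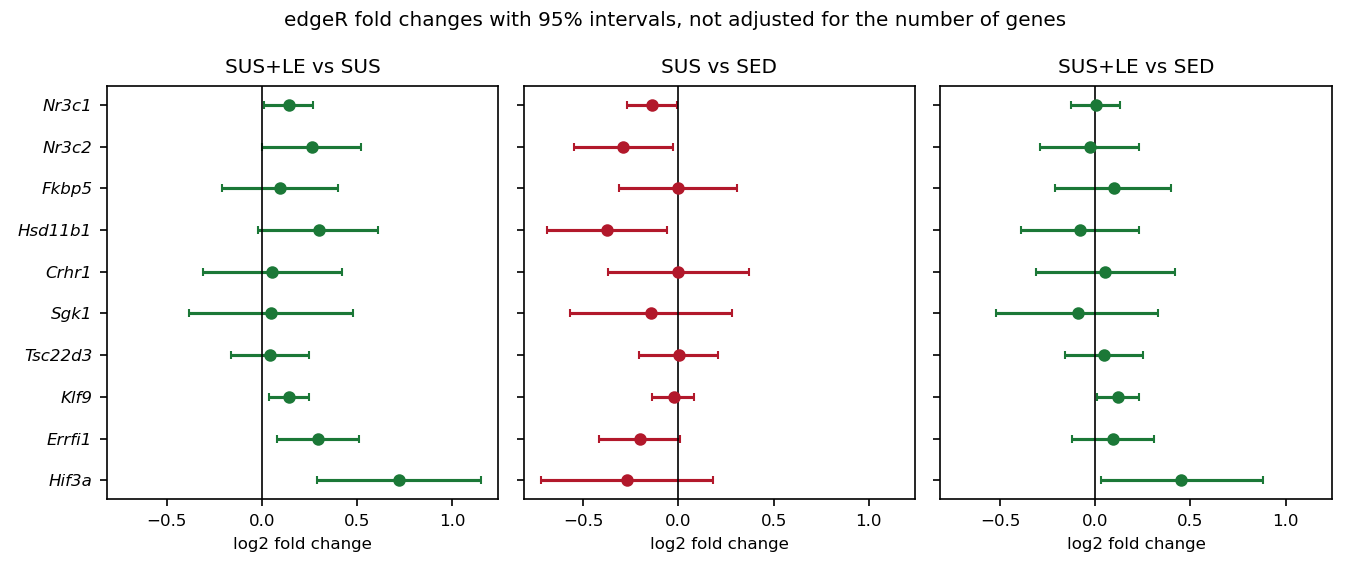
Log2 fold changes by edgeR (horizontal axis, points) with 95% intervals not adjusted for the number of genes (bars), for SUS+LE against SUS, SUS against SED, and SUS+LE against SED. Intervals lie wholly above 0 between SUS+LE and SUS for Nr3c1, Klf9, Errfi1 and Hif3a, with that of Nr3c2 reaching down to 0.00, and wholly below 0 between SUS and SED for Nr3c1, Nr3c2 and Hsd11b1.

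Across the 10 genes the fitted values between SUS+LE and SUS were all above 0, with a median of 0.14 beside 0.001 for all genes. By limma voom, Crhr1 was at −0.01 in that comparison. Between SUS and SED the median was −0.14 beside 0 for all genes, and between SUS+LE and SED 0.05 beside 0.01. Groups did not overlap, with SUS+LE higher, for 4 of 10 genes against SUS and for 2 of 10 against SED, beside 8.61% and 7.54% of all genes, and with SUS+LE lower for 0 of 10, beside 8.38% and 8.64%. SUS did not overlap SED, and was lower, for 2 of 10, beside 8.56%, and was higher for 0 of 10, beside 9.72%. Summed marker levels of several cell types also ran low in SUS, while those of pyramidal cells did not. The summed level of 14 astrocyte genes was 6350 to 6630 CPM in SUS+LE, 5870 to 6090 in SUS and 6230 to 6520 in SED. Slc1a2 alone held 3510 to 4110 CPM of this sum across the libraries. However, 8 of the 14 had higher values in SUS than in SED (median 0.08). The mean of their centred log2 CPM overlapped, at −0.05 to 0.04 in SUS and −0.06 to 0.02 in SED. For 14 endothelial and mural genes the sum was 512 to 535, 443 to 505 and 495 to 524 CPM in SUS+LE, SUS and SED. For 14 myelin genes it was 2830 to 3480, 2740 to 3130 and 3260 to 3480 CPM in the same order. The SUS sums overlapped neither group for astrocytes, overlapped SUS+LE but not SED for myelin, and overlapped SED but not SUS+LE for vessels. Between SUS and SED all 14 myelin genes had lower values (median −0.22), 10 of them at an unadjusted p of 0.05, and Ermn, Mal and Tspan2 were called by DESeq2. Between SUS+LE and SUS 13 of the 14 had higher values (median 0.16), 4 of them at that threshold. All 12 dentate granule cell genes had lower values in SUS than in SED (median −0.18, 2 at that threshold) and 10 of 12 had higher values in SUS+LE than in SUS (median 0.18, 2 at that threshold). Their sums were 589 to 658 CPM in SUS+LE, 515 to 596 CPM in SUS and 561 to 672 CPM in SED, and Prox1 was called by DESeq2 in both comparisons (0.34 for SUS+LE against SUS, adjusted p = 0.0281, and −0.41 for SUS against SED, adjusted p = 0.00479). Microglial genes were alike in range (273 to 307, 271 to 306 and 274 to 285 CPM in SUS+LE, SUS and SED). Sums of 12 pyramidal cell genes overlapped between all groups, at 1600 to 1820, 1670 to 1960 and 1700 to 1850 CPM in the same order. Of these genes, 8 had higher values in SUS than in SED (median 0.04), and 7 had lower values in SUS+LE than in SUS (median −0.01). No gene of the astrocyte, vessel, myelin, dentate and pyramidal lists was at 0 in any library, and their part in the members' values was not tested. With a choroid plexus score as a covariate, the log2 fold changes between SUS+LE and SUS were 0.73 for Hif3a, 0.34 for Errfi1 and 0.12 for Klf9.

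Genes that act around the receptors were read from 6 lists, of which 0 members passed edgeR's adjusted p of 0.05 in any comparison. Of 19 genes listed as receptor chaperones and cochaperones, the nuclear import factors Ipo13 and Kpnb1 among them, 14 had lower values in SUS+LE than in SUS. The list's median log2 fold change was −0.05, with 5 genes lower and 0 higher at an unadjusted p of 0.05, beside 6.49% and 7.20% of all genes. Cdc37, a kinase-directed cochaperone, was at 92.0 ± 3.01 CPM in SUS+LE and 105 ± 12.0 CPM in SUS (−0.19, edgeR adjusted p = 0.217). SUS 1 stood apart at 119 CPM, with SUS 2 and SUS 3 at 98.3 and 97.8 CPM. Fkbp4, the cochaperone that competes with the product of Fkbp5 for the receptor complex, was at 52.7, 56.2 and 57.0 CPM in SUS+LE mice and 66.3, 60.7 and 60.2 CPM in SUS mice, without overlap (−0.17, edgeR adjusted p = 0.22). Between SUS and SED 15 of the 19 had higher values (median 0.07), with 5 higher and 0 lower at an unadjusted p of 0.05, beside 6.83% and 6.26% of all genes. There Ahsa1, an activator of the chaperone's ATPase, was at 70.9 ± 7.53 CPM in SUS and 61.0 ± 1.97 CPM in SED (0.22, edgeR adjusted p = 0.207), and Fkbp4 at 62.4 ± 3.37 and 56.2 ± 1.07 CPM (0.15, adjusted p = 0.306; SD, n = 3 each). Between SUS+LE and SED 0 of 19 were under an unadjusted p of 0.05, where 6.64% of all genes were. The smallest p there belonged to the J-domain cochaperones Dnaja2 (175 ± 2.07 CPM in SUS+LE and 163 ± 2.73 CPM in SED) and Dnaja1 (243 ± 12.5 CPM in SUS+LE and 231 ± 1.90 CPM in SED; SD, n = 3 each).

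Coregulators, which join the bound receptor to chromatin enzymes, had medians close to 0 in all 3 comparisons (−0.01, 0.05 and 0.01 for SUS+LE against SUS, SUS against SED, and SUS+LE against SED). Nrip1, a corepressor, was at 59.0 ± 5.21 CPM in SUS+LE, 52.8 ± 2.24 CPM in SUS and 52.6 ± 3.47 CPM in SED (0.16 against SUS, edgeR adjusted p = 0.34, and 0.17 against SED, adjusted p = 0.713). The acetyltransferase Ep300 was at 95.7 ± 1.67 CPM in SUS and 108 ± 5.64 CPM in SED (−0.18, edgeR adjusted p = 0.191), and its relative Crebbp at 129 ± 1.19 CPM in SUS+LE and 138 ± 2.41 CPM in SED (−0.10, adjusted p = 0.751; SD, n = 3 each).

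Of 12 genes of corticosteroid metabolism and transport, 8 could be tested. Abcb1a, the efflux pump P-glycoprotein of the blood-brain barrier, which exports several steroids, was at 43.0, 38.2 and 39.5 CPM in SUS+LE mice, 31.5, 29.8 and 33.3 CPM in SUS mice, and 32.6, 31.3 and 37.1 CPM in SED mice. The exercised mice were above every mouse of the other groups. Its log2 fold change was 0.35 against SUS (SE 0.08, edgeR adjusted p = 0.102) and 0.26 against SED (SE 0.079, adjusted p = 0.516). The sums of endothelial and mural genes given above were higher in SUS+LE than in SUS but overlapped those in SED. Their part was not tested. The steroidogenic genes Cyp11a1 (2.65 ± 0.466 CPM in SUS+LE and 3.72 ± 0.362 CPM in SUS) and Star (1.46 ± 0.273 CPM in SUS+LE, 1.42 ± 0.332 CPM in SUS and 0.963 ± 0.475 CPM in SED) were low throughout. Hsd11b2, whose enzyme inactivates corticosterone, had at most 1 count in a library. Serpina6, the plasma carrier of the hormone, had 0 counts in all 9 libraries, which allows up to 3 counts in a library.

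Of 12 genes of peptide signalling upstream of the adrenal gland, 5 could be tested. Avp reached at most 7 counts in a library and Ucn at most 1. Crhr2, the second receptor of the corticotropin-releasing hormone family and also a gene of the choroid plexus, was at 1.53 ± 0.568 CPM in SUS+LE, 3.97 ± 2.51 CPM in SUS and 3.50 ± 1.17 CPM in SED (−1.38 against SUS, edgeR adjusted p = 0.322, and −1.19 against SED, adjusted p = 0.764). The summed choroid plexus genes were 100 to 1720 CPM in SUS+LE, 59.8 to 6860 in SUS and 3390 to 4970 in SED, and their part was not tested. Mc4r, a melanocortin receptor, was at 4.35 ± 1.14 CPM in SUS+LE and 3.08 ± 0.127 CPM in SUS (0.50, edgeR adjusted p = 0.305). Pomc, the precursor of melanocortins, was at 0.712 ± 0.347 CPM in SUS and 0.554 ± 0.0717 CPM in SED (0.36, edgeR adjusted p = 0.801). Crhbp, the binding protein that sequesters the releasing hormone, was at 15.2 ± 0.962 CPM in SUS+LE and 13.4 ± 0.981 CPM in SED (0.18, edgeR adjusted p = 0.828; SD, n = 3 each).

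Other genes known to respond to glucocorticoids, 36 tested of 38 listed, had higher values in SUS+LE than in SUS in 26 cases (median 0.12), with 6 higher and 1 lower at an unadjusted p of 0.05, beside 7.20% and 6.49% of all genes. Between SUS+LE and SED 29 had higher values (median 0.13), with 7 higher and 1 lower, beside 2.79% and 3.86%. Between SUS and SED 20 had (median 0.02), with 4 higher and 0 lower, beside 6.83% and 6.26%. Both directions together made 11.1% of the 36, beside 13.1% of all genes. The clock gene Per1, lower in SUS+LE than in SUS unlike most of the list, was at 60.2 ± 1.19 CPM in SUS+LE and 70.2 ± 5.88 CPM in SUS (−0.22, edgeR adjusted p = 0.18), with 55.4 ± 4.59 CPM in SED (0.34 for SUS against SED, edgeR adjusted p = 0.0929, DESeq2 adjusted p = 0.00989). Usp2, a deubiquitinase under clock control, was at 73.5 ± 2.11 CPM in SUS and 61.0 ± 4.71 CPM in SED (0.27, edgeR adjusted p = 0.134, DESeq2 adjusted p = 0.0338). Sesn1, a stress-induced inhibitor of mTOR signalling, was at 36.8 ± 1.12 CPM in SUS+LE and 30.9 ± 2.05 CPM in SUS (0.25, edgeR adjusted p = 0.145). The metallothionein Mt1 was at 216 ± 8.79 CPM in SUS+LE and 188 ± 10.4 CPM in SED (0.20, edgeR adjusted p = 0.456), and the lipase Pnpla2 at 12.6 ± 1.04 and 15.8 ± 1.44 CPM in SUS+LE and SED (−0.33, adjusted p = 0.598; SD, n = 3 each). The hour at which tissue was taken is not stated in the labels.

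The 12 paralogues of these genes had median log2 fold changes of 0.03 for SUS+LE against SUS and −0.02 for SUS against SED. Hif1a, the best-known relative of Hif3a, was at 103 ± 3.22 CPM in SUS+LE, 94.0 ± 10.4 CPM in SUS and 105 ± 3.54 CPM in SED (0.13 against SUS, edgeR adjusted p = 0.422). Epas1, the subunit abundant in vessels, was at 189 ± 3.00 CPM in SUS and 206 ± 6.34 CPM in SED (−0.13, edgeR adjusted p = 0.242). Sgk3, a kinase related to Sgk1, was at 10.5 ± 0.321 CPM in SUS+LE and 15.7 ± 0.408 CPM in SED (−0.58, edgeR adjusted p = 0.677), and Fkbp8, a relative of Fkbp5, at 111 ± 1.83 CPM in SUS+LE and 127 ± 13.2 CPM in SUS (−0.20, adjusted p = 0.173; SD, n = 3 each). For Fkbp8, SUS 1 stood apart at 143 CPM, with SUS 2 and SUS 3 at 120 and 119 CPM. Fkbp1a, another relative of Fkbp5, was at 377 ± 29.8 CPM in SUS+LE and 352 ± 1.81 CPM in SED (0.10, edgeR adjusted p = 0.814).

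**Figure D4:**
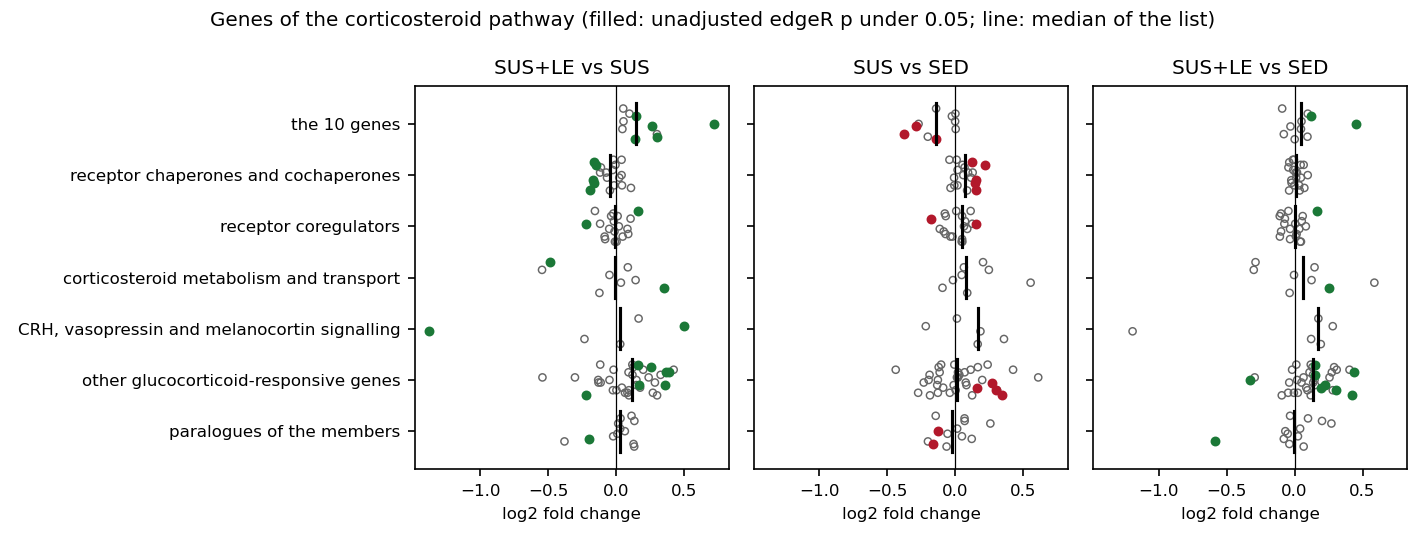
Log2 fold changes (horizontal axis) of the 10 genes and of 6 lists of pathway genes, 1 point a gene, filled where the unadjusted edgeR p was under 0.05, with a bar at each list's median, for SUS+LE against SUS, SUS against SED, and SUS+LE against SED. Chaperones lie mostly below 0 between SUS+LE and SUS (median −0.05) and mostly above it between SUS and SED (0.07), 2 comparisons that share the SUS libraries.

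Whether the 10 genes varied together between mice was asked over the 9 libraries for all 45 pairs, with exact permutation tests. No pair passed an adjusted p of 0.05 over the 45, and 3 were under an unadjusted p of 0.05. Nr3c2 and Hsd11b1 had the highest Pearson r, 0.791 (exact permutation p = 0.012, adjusted p = 0.326), with a Spearman rho of 0.867 (p = 0.00451, adjusted p = 0.203). It was 0.792 without the 2 libraries farthest from the median of Nr3c2, 0.626 with each gene centred on its group means, and 0.629 in the 6 libraries highest in Ttr. Nr3c1 and Hsd11b1 had r = 0.779 (exact permutation p = 0.0145, adjusted p = 0.326) and rho = 0.817 (p = 0.0108, adjusted p = 0.242), with 0.567 without the 2 farthest libraries, 0.62 when centred and 0.741 in the 6 libraries. Nr3c1 and Errfi1 had r = 0.722 (exact permutation p = 0.032, adjusted p = 0.41) and rho = 0.683 (p = 0.0503), with 0.741, 0.514 and 0.632 under the same 3 settings. Among the 15 pairs of the 6 target genes, 13 were positive, with a median r of 0.356, and 0 were under an unadjusted p of 0.05. With genes centred on their group means, 0 of 45 pairs were under it.

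**Figure D5:**
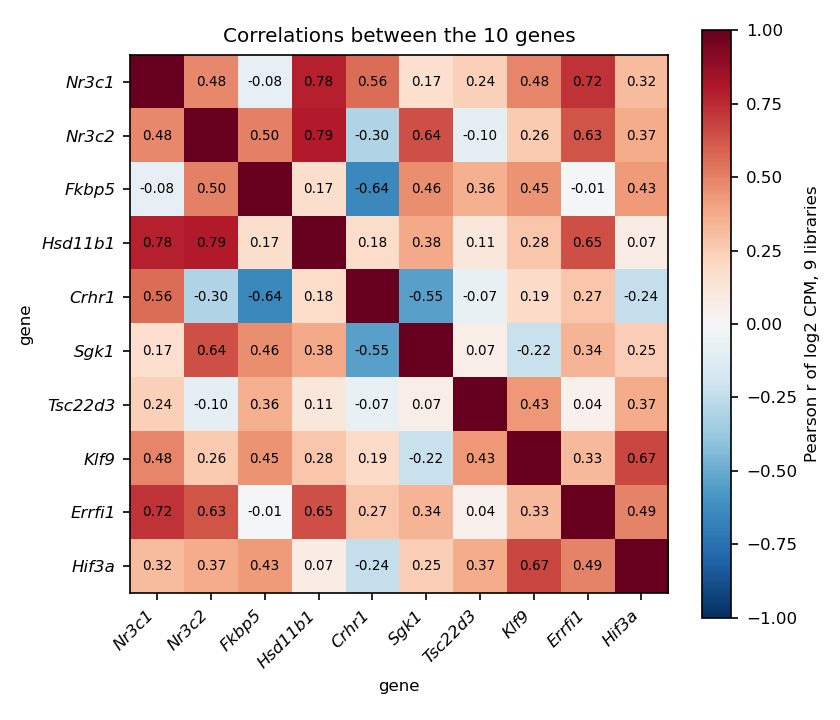
Pearson r of log2 CPM over the 9 libraries for each pair of the 10 genes (colour scale from −1 to 1, values printed). The receptors and Hsd11b1 hold the highest values (0.79 and 0.78), and 36 of 45 pairs are positive. Crhr1 is negative with Nr3c2, Fkbp5, Sgk1, Tsc22d3 and Hif3a.

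The genes whose profile over the 9 libraries was most like that of 4 of these genes were looked up among 10407 tested genes with a mean log2 CPM above 3, as a description with no test. For Nr3c1 they were Brwd1 (Pearson r = 0.967), Purg (0.964) and Ccser2 (0.933), and for Nr3c2 Cep85l (0.976), Capn7 (0.951) and Arhgap12 (0.949). For Fkbp5 they were Frzb (0.946), Adarb1 (0.934) and Sms (0.933), and for Sgk1 Unkl (0.928), Fkbp15 (0.886) and Otulinl (0.878). The 9 points share libraries, depth and choroid plexus content, and Frzb ran from 17.7 to 25.9 CPM and Cep85l from 26.9 to 36.7 CPM across them.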

How the data were processed

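Per the labels' protocols, RNAiso Plus served to extract total RNA, from which CORALL RNA-seq V2 libraries were built. The deposited files hold whole-number counts per gene symbol without normalization. Tools named in the submitters' processing notes are fastp, STAR and Salmon, with GRCm39 as the build. Their versions and settings, the annotation, strandedness, any collapsing of molecular identifiers and any rounding are not given in the sources used here. SUS+LE libraries carry the labels' numbers, 1 to 3, which the file headers count as 2 to 4.

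Genes kept by edgeR's expression filter (16106, holding 99.9% of counts) were scaled by TMM and tested with edgeR 4.0.16 in R 4.3.3, by a robust quasi-likelihood model of all 9 libraries with group as the term. Benjamini-Hochberg adjustment ran over all tested genes, and the threshold was 0.05. SE is the log2 fold change divided by the root of F. Log2 CPM used a prior count of 2. Replicates are separate mice. No library was a duplicate of another in its group: counts of libraries in 1 group differed by a chi-square per degree of freedom of 2.77 to 15.5. Pairs across groups were not compared in this way. DESeq2 1.42.0 (whose independent filtering left 7 of the 10 genes without an adjusted p between SUS and SED, and 5 between SUS+LE and SUS), limma 3.58.1, other scalings and filters, GC and length trends, a choroid plexus score, a replicate block and left-out libraries were alternatives. Scripts were tested on simulated data. Transcript length and GC came from GENCODE M21 (GRCm38) by symbol, for 91.3% of tested genes, and promoters from RefSeq (GRCm38.p6).

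The 10 genes, the pathway lists, the markers and the alternatives were chosen with earlier results of these data known. Each list names the 2 genes with the smallest p in a comparison, except that 1 coregulator is not reported here. Of the lists' genes, Tsc22d4 is not analysed here.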

Additional observations from a re-analysis of the deposited data

How the results depend on the processing

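Counts of the 10 genes past an adjusted p of 0.05, 0 by edgeR in each comparison, were 1 between SUS and SED by DESeq2 (Nr3c2, −0.295, adjusted p = 0.0456), and 1 there (Nr3c2, −0.296) and 3 between SUS+LE and SUS (Nr3c2 0.263, Errfi1 0.298, Hif3a 0.722) without a filter on low counts. Under all other alternatives they stayed at 0, and between SUS+LE and SED they were 0 under every one. Over all genes, where edgeR called 0, SUS+LE against SUS gave 185 by DESeq2, 430 without a filter, 1 with only those 2 groups, 418 with a choroid plexus covariate and 20 when the 3 libraries lowest in Ttr were left out. SUS against SED gave 177 by DESeq2, 297 without a filter and 14 without those 3 libraries. SUS+LE against SED gave 16 by DESeq2, 218 without a filter, 239 with only those 2 groups, 16 without the 3 libraries and 2 with the choroid plexus covariate. The cause was not tested.

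Leaving out single libraries gave 0 to 184 calls for SUS+LE against SUS (184 without SUS 2 and 83 without SUS 1), 0 to 74 for SUS against SED (74 without SUS 3 and 27 without SUS 2), 0 to 69 for SUS+LE against SED (69 without SUS 1 and 50 without SUS 3), and 0 to 86 for any difference (86 without SUS 3, 68 without SUS 1 and 13 without SUS 2). The others gave at most 8, and the 10 genes gave 0 throughout.

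Labels number mice 1 to 3 in each group. Deviations of same-numbered mice correlated at −0.123 to 0.18, and 5 of 9 libraries were closest to their own number. This check cannot settle whether the numbers pair mice, as the file headers count the SUS+LE libraries as 2 to 4. With the replicate number as a block, calls over all genes were 1 for SUS+LE against SUS, 1 for SUS against SED, 0 for SUS+LE against SED and 1 for any difference. With GC and length trends also removed they were 4, 1 and 1 in the 3 comparisons. The receptor ratio's exact sign-flip p with mice paired by that number was 0.5, 0.5 and 0.75, and the 10 genes had 0 calls.

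The direction of the log2 ratio of receptors held without any library for SUS+LE against SUS (0.038 to 0.215) and SUS against SED (−0.288 to −0.074), while SUS+LE against SED ran from −0.176 to 0.066. No correlation passed its threshold in any setting.

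No gene turned in a comparison in which its unadjusted p was under 0.05. Of the rest, values without single libraries crossed 0 between SUS+LE and SUS (−0.02 to 0.241 for Fkbp5, −0.086 to 0.175 for Crhr1, −0.147 to 0.218 for Sgk1 and −0.038 to 0.119 for Tsc22d3), between SUS and SED (−0.067 to 0.074 for Fkbp5, −0.164 to 0.124 for Crhr1, −0.072 to 0.102 for Tsc22d3 and −0.057 to 0.025 for Klf9) and between SUS+LE and SED (−0.06 to 0.054 for Nr3c1, −0.112 to 0.079 for Nr3c2, −0.019 to 0.242 for Fkbp5, −0.242 to 0.043 for Hsd11b1, −0.111 to 0.177 for Crhr1, −0.29 to 0.076 for Sgk1, −0.036 to 0.147 for Tsc22d3 and −0.028 to 0.195 for Errfi1).

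Between SUS and SED, Fkbp5 (0.00) was −0.002 by DESeq2, −0.016 by limma voom, −0.002 with RLE factors, −0.003 without a filter, −0.001 with a stricter filter, −0.001 with only 2 groups, −0.002 with GC and length trends removed, −0.005 with the replicate block and −0.008 with both. Crhr1 was 0.033 by limma voom, 0.002 with upper quartile factors, 0.004 with library totals and 0.008 with the replicate block. Tsc22d3 was −0.012 by limma voom, −0.001 without a filter and −0.049 with the choroid plexus score. Klf9 was 0.026 with GC and length trends removed and 0.023 with the replicate block as well. Between SUS+LE and SED, Nr3c1 was −0.002 by DESeq2, with RLE factors, without a filter and with only 2 groups, −0.003 with a stricter filter and −0.021 with library totals. Nr3c2 was 0.01 with GC and length trends removed and 0.009 with the replicate block as well. With the choroid plexus score, values there were 0.095 for Nr3c2, 0.014 for Hsd11b1, −0.002 for Crhr1, 0.197 for Sgk1 and −0.052 for Tsc22d3, and Tsc22d3 was −0.003 between SUS+LE and SUS, where limma voom gave −0.009 for Crhr1. Without the 3 libraries lowest in Ttr, Crhr1 was −0.222 between SUS+LE and SUS. Then Fkbp5 was −0.069, Crhr1 0.06 and Tsc22d3 −0.075 between SUS and SED, and Nr3c2 was 0.112, Crhr1 −0.162 and Sgk1 0.237 between SUS+LE and SED.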
